A study of Drosophila melanogaster with 20 samples.

Results

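The genes poe, axo, thw and ClC-a were followed through RNA-seq libraries of Drosophila melanogaster embryos in which a hairpin against otk2 was or was not expressed. They were chosen by their levels in these same libraries, as genes set apart in the groups that carry this hairpin, so their difference between hairpin and other libraries is given below as a description with no test. They are 4 of the 17714 genes counted, and all 4 were among the 11154 genes that passed a filter of at least 10 counts per library on average. The deposited values bear the choice out fully for poe, except for 2 libraries for axo and thw, and not at all for ClC-a, which was high in another group.

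The product of poe (purity of essence, also called pushover) is a very large calmodulin-binding protein of the UBR ubiquitin ligase family, which marks proteins for breakdown, and flies lacking it have sterile males and overexcitable motor neurons. Axotactin, the product of axo, is a neurexin-related protein that glia release onto axons, where it affects how the axon conducts impulses. The ClC-a gene encodes a chloride channel of the ClC-2 type that is active in glia and in stellate cells of the Malpighian tubule, the insect kidney. RNA interference works through a double-stranded hairpin that is cut into short RNAs and lowers the transcript it matches, and the otk2 hairpin matches off-track2, a transmembrane protein related to vertebrate Ptk7 that binds Wnt ligands together with Off-track (otk1).

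Whole embryos of mixed age were sequenced in 10 groups of 2 libraries each. The study lists crosses to the mat, da GAL4 driver for the overexpression and RNAi genotypes, and lists none for WT. This driver recombines a maternal and a daughterless GAL4 so that transgenes are on in the egg and throughout the embryo. Besides WT, 3 groups overexpressed UAS-wnt4, UAS-otk1 or UAS-otk1 with UAS-wnt4, and 6 groups expressed hairpins, labelled otk2 RNAi, wnt4 RNAi, otk1 RNAi, otk1 RNAi with wnt4 RNAi, otk2 RNAi with wnt4 RNAi, and otk1 RNAi with otk2 RNAi. By these labels the otk2 hairpin is in 3 groups (6 libraries) and absent from 7 (14 libraries). The study lists several otk2 hairpin stocks, and which of them was sequenced is not known here.

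The libraries held 33641557 to 41753919 expected counts. Levels are in TPM (a count scaled for transcript length and library total), and differences are log2 differences of counts with their standard error (SE) from edgeR, called at an adjusted p under 0.1. The otk2 level was 10.06 to 17.37 TPM in the 6 hairpin libraries and 18.66 to 44.64 TPM in the 14 others, without overlap. Among those others, the 3 RNAi groups without the otk2 hairpin had 18.66 to 29.61 TPM, against 38.75 and 41.4 TPM in WT. Less otk2 than in WT was thus not confined to groups with its hairpin. The UAS groups had raised Wnt4 (871.25 to 1025.59 TPM) or otk (309.01 to 524.2 TPM), and otk was 8.83 to 20.55 TPM in the otk1 RNAi groups against 43.35 and 47.44 TPM in WT. Wnt4 was not lower in the libraries labelled wnt4 RNAi (48.63 and 47.98 TPM, against 44.95 and 38.75 TPM in WT), so that label is not borne out. Nor did Wnt4 in otk2 RNAi wnt4 RNAi (24.51 and 26.27 TPM) lie below otk2 RNAi (30.17 and 18.86 TPM), with a log2 difference of 0.10 ± 0.15. In TPM, Wnt4 was lower in otk1 RNAi wnt4 RNAi (22.59 and 21.55) than in otk1 RNAi (31.02 and 30.83). As log2 differences of counts to WT these 2 groups lay close, at -0.49 ± 0.15 and -0.38 ± 0.15. Whether they differed was not tested. Nothing in the labels says that the 2 libraries of a group come from separate crosses, and each p-value sets a difference only against the scatter of such libraries, which may be technical.

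**Figure D1:**
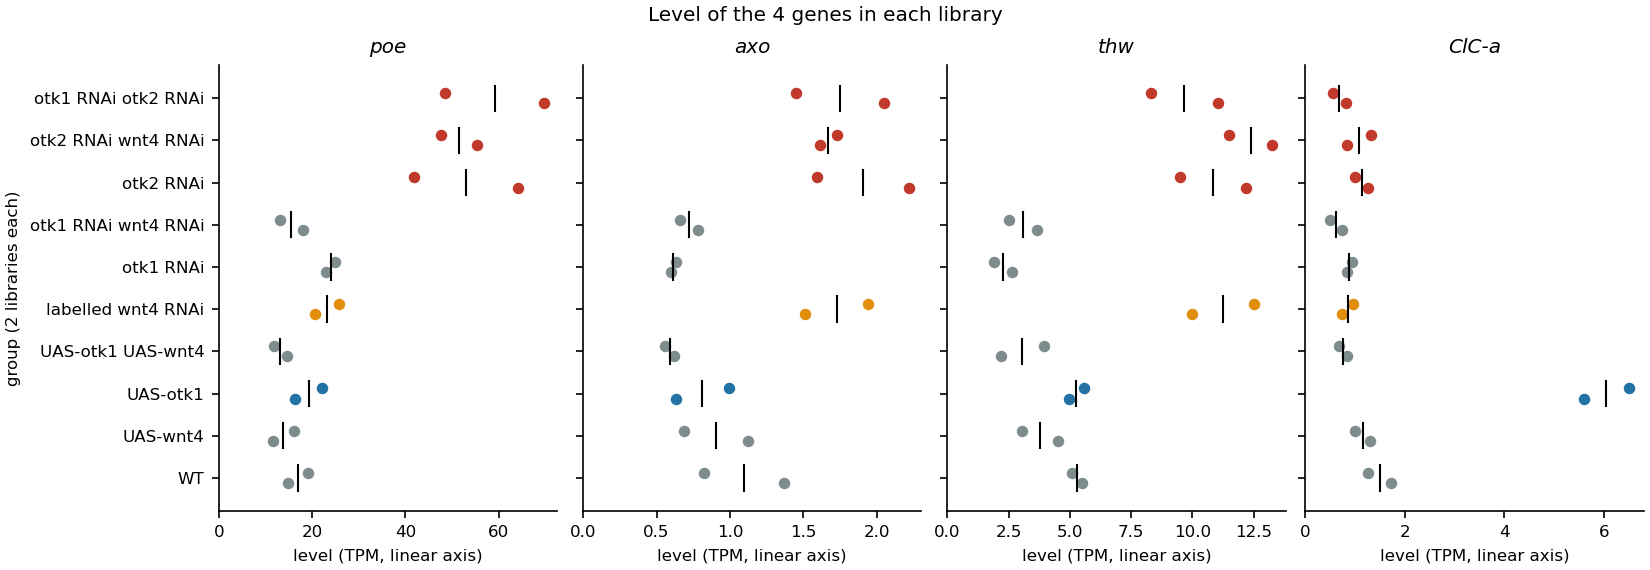
Level in TPM (x axis, linear) of poe, axo, thw and ClC-a in each library, with 1 row per group, 1 point per library and a black line at the mean of 2 libraries. Red marks the 3 groups with the otk2 hairpin, orange the libraries labelled wnt4 RNAi and blue UAS-otk1. The red points of poe (41.92 to 69.65) lie right of all others, the red points of axo and thw share their range with orange, and in ClC-a only the blue points (5.59 and 6.5) stand apart.

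poe was high wherever the otk2 hairpin was expressed. Its level was 64.05 and 41.92 TPM in otk2 RNAi, 55.36 and 47.55 TPM in otk2 RNAi wnt4 RNAi, and 69.65 and 48.54 TPM in otk1 RNAi otk2 RNAi. Among the 14 other libraries the lowest was 11.59, the median 17.2 and the highest 25.82 TPM, the last in a library labelled wnt4 RNAi. No library without the hairpin came near the hairpin range. The 6 libraries lay above the 14 by 1.63 ± 0.09 on the log2 scale, or 3.10-fold, with a gap of 0.80 between the highest library without and the lowest library with the hairpin. This is the 25th largest difference upward of the 11154 genes, and with a mean of 15970 counts per library poe was by far the most deeply counted of the 4 genes.

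Among groups without the hairpin, poe varied less. WT had 14.9 and 19.01 TPM, UAS-wnt4 11.59 and 16.06 TPM, UAS-otk1 16.38 and 22.09 TPM, and UAS-otk1 UAS-wnt4 14.54 and 11.85 TPM. The RNAi groups without the hairpin were at 20.52 and 25.82 TPM (libraries labelled wnt4 RNAi), 23.05 and 24.81 TPM (otk1 RNAi), and 18.01 and 13.05 TPM (otk1 RNAi wnt4 RNAi). In order of group means, each of these 7 groups overlapped the next. A test across the 7 groups passed for poe (edgeR adjusted p = 0.0044), as it did for 67.5% of all genes tested. The choice of genes drew on the levels in these groups, though it did not contrast them with each other. Compared with WT, poe was higher by 0.68 ± 0.19 in the libraries labelled wnt4 RNAi (adjusted p = 0.0086) and by 0.58 ± 0.19 in otk1 RNAi (adjusted p = 0.032), while 59.2% and 45.5% of all genes passed in these comparisons. Both calls rested on WT replicate 1, without which they were 0.48 (adjusted p = 0.14) and 0.43 (adjusted p = 0.282), and the call in otk1 RNAi also on otk1 RNAi replicate 2 (0.53 without it, adjusted p = 0.143). Neither passed with a stage score, the mean log2 CPM of late minus early marker genes, added to the model (0.40, adjusted p = 0.437, and 0.25, adjusted p = 0.796). The joint group otk1 RNAi wnt4 RNAi lay below the sum of these differences, by -0.94 ± 0.26 (adjusted p = 0.0478), in a test of non-additivity that 19.7% of genes passed.

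Of the genes around poe, its upstream neighbour MED20 rose with it. MED20 encodes a subunit of the Mediator, the complex that links transcription factors to RNA polymerase II. On chromosome arm 2L (dm6 coordinates), poe spans positions 8054322 to 8071624 and MED20 positions 8071812 to 8072848, both on the minus strand with 187 bases between the end of MED20 and the start of poe. MED20 had 33.21 to 51.67 TPM in the hairpin libraries and 11.03 to 22.29 TPM in the others, again without overlap, and was higher by 1.22 ± 0.08 (adjusted p = 5.67e-07). Of all tested genes, 1.27% passed upward in this comparison and 2.36% downward.

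Of the genes near poe, 4 others are given here, and none of them passed. Trf, on the far side of MED20, differed by 0.11 ± 0.08 and Mcr by 0.08 ± 0.07. RpL36A differed by -0.0034 ± 0.0487 and CCDC53 by -0.12 ± 0.15. Within 100 kb of poe, 3 of 30 tested genes passed, namely MED20, CG12560 (0.40 ± 0.07, adjusted p = 0.0058) and Glyat (-0.64 ± 0.17, adjusted p = 0.0651). The hairpin and other ranges of CG12560 (22.52 to 35.52 against 9.5 to 32.85 TPM) and Glyat (2.34 to 5.42 against 3.15 to 7.53 TPM) overlapped. Near axo, thw and ClC-a, 0 of 16, 0 of 20 and 0 of 22 tested genes passed within the same distance by edgeR. At an unadjusted p under 0.05 they were 5, 2 and 0 genes, and by DESeq2 2, 1 and 0.

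**Figure D2:**
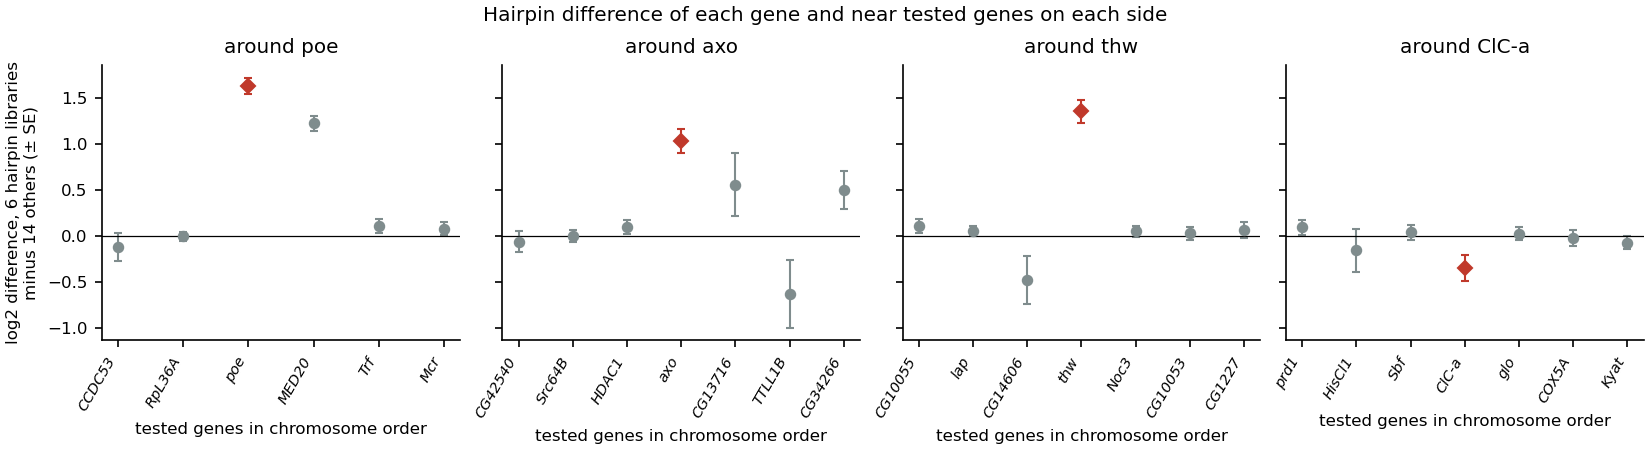
Log2 difference between the 6 libraries with the otk2 hairpin and the 14 without (y axis, ± SE) for poe, axo, thw and ClC-a (red diamonds) and up to 3 near tested genes on each side of each (grey circles), in chromosome order on the x axis, not to scale. Of the neighbours shown, MED20 at 1.22 is the sole one past the threshold; those of axo, thw and ClC-a lie nearer to 0 or have wide errors.

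axo was higher with the hairpin than in most other groups, at a low level throughout. It had 2.22 and 1.59 TPM in otk2 RNAi, 1.61 and 1.73 TPM in otk2 RNAi wnt4 RNAi, and 2.05 and 1.45 TPM in otk1 RNAi otk2 RNAi. The libraries labelled wnt4 RNAi, whose label names no otk2 hairpin, had 1.51 and 1.94 TPM and lay inside that range. The 12 remaining libraries were lower, from 0.56 to 1.37 TPM with a median of 0.675, and the 2 nearest to the hairpin range were WT replicate 1 (1.37) and UAS-wnt4 replicate 1 (1.12). The average difference between the 6 and the 14 libraries was 1.03 ± 0.13, or 2.04-fold, and 1.20 ± 0.14 with the libraries labelled wnt4 RNAi left out.

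thw was high in the same 4 groups as axo. Its level was 12.19 and 9.51 TPM in otk2 RNAi, 13.23 and 11.51 TPM in otk2 RNAi wnt4 RNAi, 11.06 and 8.29 TPM in otk1 RNAi otk2 RNAi, and 9.98 and 12.51 TPM in the libraries labelled wnt4 RNAi. The other 12 libraries ran from 1.89 to 5.56 TPM with a median of 3.8. In order of their means each of these 4 high groups overlapped the next, and none overlapped the remaining 6. Within the lower set, WT (5.48 and 5.10 TPM) and UAS-otk1 (4.96 and 5.56 TPM) were highest, and otk1 RNAi was lowest (2.66 and 1.89 TPM). The 6 hairpin libraries exceeded the 14 others by 1.35 ± 0.12 on average, or 2.55-fold, and by 1.59 ± 0.13 without the libraries labelled wnt4 RNAi.

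The rise in the libraries labelled wnt4 RNAi over other groups without the hairpin was tested only after the levels had been seen. The choice of genes did not contrast these groups with each other, but the p-values below are for a pattern already noticed. There thw was higher than in WT by 1.32 ± 0.27 (edgeR adjusted p = 0.0017) and axo by 0.88 ± 0.29 (adjusted p = 0.0203), in both libraries of the group, against the background of 59.2% of all genes that passed. The thw call held under all 25 alternatives tried (largest adjusted p = 0.0443). Markers of cell types and age differed in the same comparison, against 29.5% of all genes lower and 29.7% higher. Lower were 8 of 10 glial, 8 of 9 neuronal, 8 of 8 muscle, 5 of 8 epidermis and 5 of 5 Malpighian tubule markers. Of 7 germ plasm markers, 4 were higher. Of 8 blastoderm markers 1 was higher and 2 lower, and of 5 hemocyte markers 1 was higher and 2 lower. The part of cell types and age in the rise was not tested. With the stage score in the model the differences were 1.72 ± 0.41 for thw and 1.97 ± 0.29 for axo. Without WT replicate 2 the axo difference was 0.55 ± 0.32 and did not pass (adjusted p = 0.157). Fewer genes, 0.646%, passed between the libraries labelled wnt4 RNAi and otk1 RNAi wnt4 RNAi. In that comparison thw was higher by 1.66 ± 0.27 (adjusted p = 0.0152), a call lost without replicate 2 of the libraries labelled wnt4 RNAi (adjusted p = 0.169) or without otk1 RNAi wnt4 RNAi replicate 2 (adjusted p = 0.221). The axo difference there, 1.02 ± 0.29, missed the threshold (adjusted p = 0.188) but passed by DESeq2 (adjusted p = 0.0375), with the stage score in the model (0.0114), without WT replicate 1 (0.0902) and without UAS-wnt4 replicate 1 (0.0934). In otk1 RNAi, thw was lower than in WT by 1.14 on the log2 scale (SE 0.27, log2 difference -1.14, adjusted p = 0.0108). The call was lost without otk1 RNAi replicate 2 (-0.91, adjusted p = 0.104) and with the stage score in the model (-0.67, adjusted p = 0.618).

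**Figure D3:**
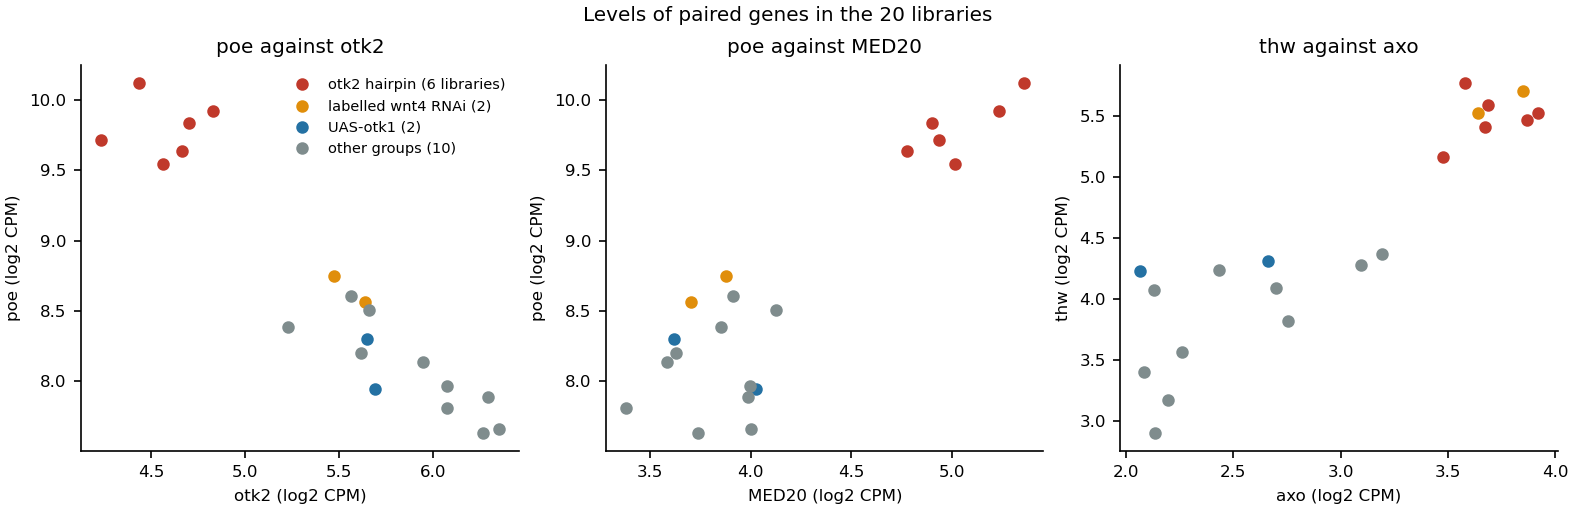
Levels of paired genes in log2 CPM (counts scaled to the library total) on both axes, 1 point per library, for poe against otk2, poe against MED20, and thw against axo. Red is the otk2 hairpin (6 libraries), orange the libraries labelled wnt4 RNAi (2), blue UAS-otk1 (2) and grey the other groups (10). The hairpin libraries form a cloud of their own in the first 2 panels, while in the panel of thw and axo the orange points lie among the red.

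axo and thw moved alike over the 20 libraries (Pearson's r = 0.91 of log2 CPM), more closely than either did with poe (r = 0.74 and 0.71). These are descriptions over libraries that share groups, and the genes lie far apart, axo on arm 3L (4629604 to 4687317, minus strand) and thw on arm 3R (7224414 to 7241138, plus strand). In the annotation thw has 1 transcript and no overlapping neighbour. axo has 7 transcripts and 5 genes overlapping it, of which 3 were tested at low counts, and none of them passed with the hairpin.

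The hairpin difference can also be read within 3 matched backgrounds, as otk2 RNAi against WT, otk2 RNAi wnt4 RNAi against the libraries labelled wnt4 RNAi, and otk1 RNAi otk2 RNAi against otk1 RNAi. For poe it was 1.76 ± 0.19, 1.08 ± 0.19 and 1.37 ± 0.19 in that order, all in the same direction. MED20 showed 1.64 ± 0.18, 1.05 ± 0.18 and 1.14 ± 0.18. For axo the values were 0.94 ± 0.29, -0.11 ± 0.28 and 1.58 ± 0.29, and for thw 1.16 ± 0.27, 0.06 ± 0.26 and 2.16 ± 0.28. In the second background, where the libraries without the hairpin were already high, the axo and thw values were smaller than their SE.

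**Figure D4:**
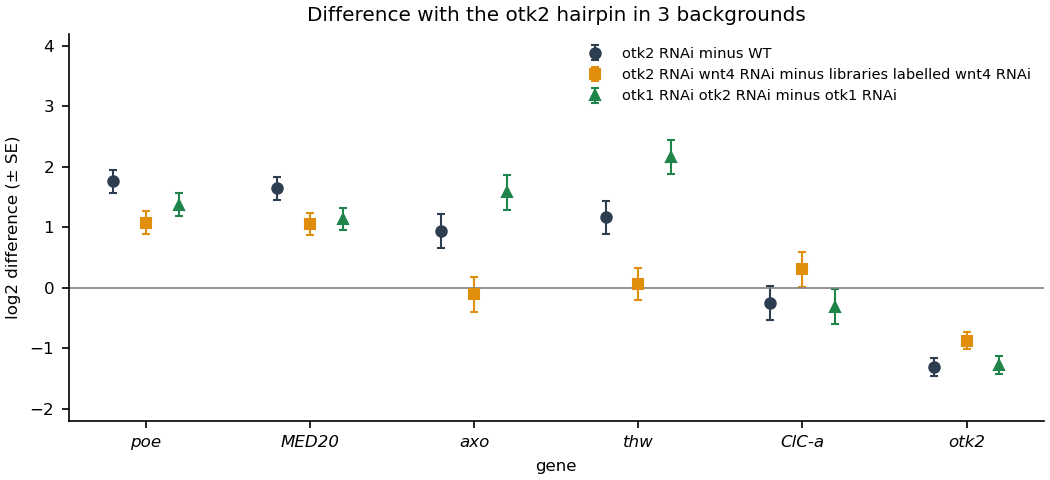
Log2 difference (y axis, ± SE, 2 libraries against 2) with the otk2 hairpin for 6 genes on the x axis, in 3 backgrounds given by circles, squares and triangles. poe (1.08 to 1.76) and MED20 lie above 0 and otk2 below 0 in each background; axo and thw lie near 0 in the background labelled wnt4 RNAi (squares), and ClC-a lies near 0 in all 3.

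A test of whether the hairpin difference varied between the 3 backgrounds did not pass for any of the 4 genes. The adjusted p was 0.154 for thw, 0.469 for axo, 0.709 for poe and 0.772 for ClC-a (unadjusted p in edgeR 0.00029, 0.0033, 0.0603 and 0.272), and 10 genes, 0.0897% of those tested, passed. The thw and axo results passed in some other fits. By DESeq2 thw had an adjusted p of 0.00029 and axo of 0.0469, and the test of axo passed with the stage score as a covariate (0.0182).

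With a further hairpin labelled beside the otk2 hairpin, none of the 4 genes passed the test of a difference. Wnt4 itself was not lower in otk2 RNAi wnt4 RNAi than in otk2 RNAi (0.10 ± 0.15), so the lack of a difference there does not speak to loss of Wnt4. Across the 3 hairpin groups the edgeR adjusted p was 0.694 for poe, 0.91 for axo, 0.62 for thw and 0.18 for ClC-a, and 19.8% of all genes passed. The poe difference to otk2 RNAi was -0.01 ± 0.18 in otk2 RNAi wnt4 RNAi and 0.19 ± 0.19 in otk1 RNAi otk2 RNAi. For thw these differences were 0.22 ± 0.26 and -0.14 ± 0.26, and for axo -0.16 ± 0.28 and -0.12 ± 0.28. ClC-a had -0.02 ± 0.28 and -0.70 ± 0.29, the second of which missed the threshold (unadjusted p = 0.0281, adjusted p = 0.182 in edgeR). Of the 8 differences only this one was more than about its own SE from 0.

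ClC-a was not set apart by the otk2 hairpin. Its level was 1.26 and 1.00 TPM in otk2 RNAi, 0.83 and 1.31 TPM in otk2 RNAi wnt4 RNAi, and 0.81 and 0.55 TPM in otk1 RNAi otk2 RNAi, and 13 of the 14 other libraries were at or above the lowest of these. The average difference was -0.35 ± 0.14, which became 0.0046 ± 0.1518 with the 2 UAS-otk1 libraries left out, a choice made with the levels in view. In the 3 matched backgrounds it was -0.25 ± 0.28, 0.31 ± 0.28 and -0.31 ± 0.29.

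Instead, ClC-a was high in UAS-otk1. The 2 libraries of that group had 5.59 and 6.5 TPM, and the 18 others ran from 0.50 to 1.73 TPM, with the top of that range in WT (1.73 and 1.25 TPM). In a comparison added after the levels were seen, UAS-otk1 exceeded WT by 1.99 ± 0.28, or 3.98-fold (edgeR adjusted p = 0.0045). That comparison called 1.19% of genes higher and 1.65% lower. This call held under all 25 alternatives (largest adjusted p = 0.054). UAS-otk1 UAS-wnt4, which also overexpresses otk1, had 0.84 and 0.68 TPM and lay below UAS-otk1 without overlap, by 2.74 ± 0.29 (adjusted p = 0.00026, 0.717% of genes passing). The ClC-a difference with UAS-otk1 thus varied with and without UAS-wnt4, by -2.50 ± 0.40 (adjusted p = 0.0198), in a test of non-additivity that 0.242% of genes passed. UAS-otk1 also differed from WT and the other UAS groups in the stock marker gene w, as given below, and the part of stock was not tested. The otk level itself was 502.21 and 524.2 TPM in UAS-otk1 and 342.65 and 309.01 TPM in the group with UAS-wnt4. Across the 7 groups without the hairpin ClC-a varied (adjusted p = 1.09e-05), and without UAS-otk1 it did not pass (adjusted p = 0.155).

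No neighbour of ClC-a moved with it. The gene lies on arm 3R (11797244 to 11813207, minus strand) with 7 transcripts and no overlapping gene, and 0 of 22 tested genes within 100 kb passed between UAS-otk1 and WT in edgeR (3 at an unadjusted p under 0.05, 2 by DESeq2). The orcokinin neuropeptide gene Orcokinin on arm 2R was the gene most like ClC-a over the 20 libraries (r = 0.76 among 8805 genes with at least 100 counts on average). It had 22.84 and 17.04 TPM in UAS-otk1 and 3.83 to 8.43 TPM in the other 18 libraries, and exceeded WT in UAS-otk1 by 1.45 ± 0.27. Orcokinin was picked for following ClC-a in these same libraries, so this difference is a description with no test. The allatostatin receptor gene AstC-R2 (r = 0.75), CG10550 (0.73), CR32010 (0.72) and CG42260 (0.69) followed. Their log2 differences between UAS-otk1 and WT were 0.57, 0.48, -0.36 and 0.12 in that order. GILT3 (r = -0.76) and lncRNA:CR42861 (-0.75) ran most nearly opposite.

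The genes most like poe over the 20 libraries were MED20 (r = 0.90), the diacylglycerol acyltransferase gene Dgat2 (0.87), the pigmentation gene y (0.80), the pseudouridine synthase gene Pus7 (0.79) and blanks (0.78). Most nearly opposite were otk2 itself (r = -0.95) and lncRNA:CR46064 (-0.88). For axo the closest were CG31221 (0.95), CG12522 (0.92), CG32073 (0.92), thw (0.91) and the molybdenum cofactor gene Mocs1 (0.85), and for thw they were CG31221 (0.93), axo (0.91), CG32073 (0.87), CG12522 (0.85) and CG34393 (0.81). CG31221, at the head of both, had 12.75 to 22.36 TPM in the hairpin libraries, 19.53 and 24.29 TPM in the libraries labelled wnt4 RNAi and 0.92 to 5.17 TPM in the other 12. Nepl21, a neprilysin-like peptidase gene (r = -0.79 with axo and -0.88 with thw), and CG44098 (-0.79 and -0.83) were the most nearly opposite to both.

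poe was 1 of 14 genes whose 6 hairpin libraries all lay above the 14 others in log2 CPM, which is 0.126% of genes tested, and 6 genes (0.0538%), otk2 and the beta-catenin gene arm among them, lay wholly below. Sorted by the gap between the sets, poe and MED20 were the fifth and sixth of the 14, after CG13223, CG2955, the kekkon gene kek4 and the potassium channel gene Shawl, each of which was at or under 0.39 TPM in every library without the hairpin. Of the 14 genes 9, poe and MED20 included, lie on arm 2L, 4 on arm 2R and 1 on arm 3L. Chromosome 2 thus held 13 of the 14, while it held 37.7% of the genes tested. It also held 3 of the 6 genes wholly below, 63 of the 142 genes called higher and 110 of the 263 called lower.

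Of 52 tested genes in the 5 groups listed around the 4 genes, 3 passed with the hairpin (5.77%, against 3.63% of all genes tested). Of 8 tested genes of the N-degron and UBR ligase group around poe, 1 passed upward with the hairpin, tun (0.28 ± 0.08), and 0 downward, with a median of 0.12 against 0.01 over all genes tested. Of 11 neurexin family and axon-glia contact genes around axo, 0 passed (median -0.02), and of 10 axon excitability genes 0 passed (median -0.24). Of 12 chloride channel and transporter genes around ClC-a, 0 passed upward and 1 downward, the chloride channel gene SecCl (-0.67 ± 0.19), and of 11 ZP domain and apical matrix genes 0 passed upward and 1 downward, dy (-0.54 ± 0.16). The calls of tun, SecCl and dy were lost in 15, 16 and 18 of 27 alternatives, and in matched backgrounds none of these 3 was called and tun lay at -0.05 ± 0.09. The neurexin and excitability groups, with 0 calls in edgeR, had 2 and 3 genes at an unadjusted p under 0.05 and 0 and 0 by DESeq2. Between UAS-otk1 and WT, where ClC-a was high, 2 of the 12 chloride genes were higher and 0 lower, the bestrophin Best1 (0.51 ± 0.11, adjusted p = 0.0513) and the anoctamin subdued (0.55 ± 0.15, adjusted p = 0.0983).

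Cell types, embryo age and fly stocks also differed between libraries, and their part in these results was not tested. With the hairpin, 0 of 10 glial, 0 of 9 neuronal, 0 of 8 muscle, 0 of 7 germ plasm and 0 of 8 blastoderm markers passed, while 1 of 8 epidermis markers (ple) and 1 of 5 Malpighian tubule markers (SecCl) were lower and 1 of 5 hemocyte markers (crq) higher. The crq call was lost in 14 of 27 alternatives and the ple call in 4, and in matched backgrounds neither passed. There the hemocyte marker Hml was lower (-0.80 ± 0.18, edgeR adjusted p = 0.0724), at a level near the floor (0.03 to 0.16 TPM with the hairpin, 0.05 to 0.29 TPM without). The other hemocyte markers did not pass there (srp -0.06, Pxn 0.04, NimC1 -0.10, crq 0.18). Of the markers without a call, 2 glial and 2 germ plasm genes had an unadjusted p under 0.05 in edgeR, and DESeq2 called 0 in these 5 lists. The summed glial level was 291.5 to 404.2 TPM in the hairpin libraries and 203.1 to 427.9 TPM in the others, and between UAS-otk1 and WT 0 of 10 glial markers passed in edgeR (6 lower at an unadjusted p under 0.05, 3 lower by DESeq2). In whole embryos, fewer cells of a type and less RNA per cell cannot be told apart. The stage score was -0.19 to 1.18 in the hairpin libraries and -0.17 to 3.11 in the others. WT replicate 1 had the highest score (3.11), then UAS-wnt4 replicate 1 (2.24) and WT replicate 2 (1.49). With the score as a covariate, 269 genes passed with the hairpin in place of 405.

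Among 5 stock marker genes, y was higher (1.99 ± 0.10, adjusted p = 4.49e-08) and w lower (-1.37 ± 0.08, adjusted p = 1.49e-07) with the hairpin. All 6 RNAi groups, with or without the otk2 hairpin, had more y (7.30 to 17.09 TPM) than WT and the UAS groups (1.05 to 2.51 TPM) and less w (3.12 to 6.94 against 9.44 to 71.84 TPM). The 3 other RNAi groups were nearer to the hairpin groups in these markers, but not equal. Their y was 7.3 to 13.68 TPM, against 10.93 to 17.09 TPM with the hairpin, and their w 3.12 to 5.53 against 4.33 to 6.94 TPM. Set against these 3 groups alone, poe was higher by 1.3 ± 0.11 (13.05 to 25.82 TPM in those 6 libraries), thw by 1.24 ± 0.16, axo by 0.85 ± 0.17 and ClC-a by 0.17 ± 0.17. This reference was picked with the marker levels in view. Among WT and the UAS groups, UAS-otk1 had the least w, at 9.44 and 11.18 TPM. The groups with UAS-wnt4 had 35.34 to 48.86 TPM and WT 68.85 and 71.84 TPM. Whether stock has a part in the ClC-a level of UAS-otk1 was not tested.

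The counts of poe, thw and ClC-a were whole numbers in 20 of 20 libraries and those of axo in 19, so nearly no read was shared with another gene. The length that the authors' program estimated from the mix of transcripts varied by 0.161% over the 20 libraries for poe and by 3.43% for axo, with hairpin medians of 16166 and 7353 bases against 16166 and 7336 bases in the others. For ClC-a it varied by 7.64%, and for thw it was fixed at 4222 bases.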

How the data were processed

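The authors aligned paired reads of whole-embryo total RNA with STAR 2.7.1a and estimated gene values with RSEM 1.3.1 on BDGP6.22 (dm6), and deposited expected counts, TPM and transcript-weighted lengths per library. Their FPKM and effective lengths were not used. Whether counting used strand was not stated. Names and positions came from Ensembl release 115 on the same coordinates (17587 of 17714 genes matched). The 426 rRNA, snRNA, snoRNA and mitochondrial genes (5.99% to 10.9% of counts) were left out. Expected counts, of which 11.6% were not whole, were rounded, and the 11154 genes averaging 10 or more counts were kept for edgeR 4.0.16 (R 4.3.3, TMM, quasi-likelihood, all 20 libraries, group means, Benjamini-Hochberg, 10% threshold). On simulated counts, the hairpin comparison recovered 44 of 50 genes changed 1.5-fold and 50 of 50 changed 2-fold, with 22 false calls. The test across the 7 groups recovered 8 of 50 and 25 of 50 genes changed in the libraries labelled wnt4 RNAi, with 4 false calls. DESeq2 made 63 false calls in the first and 241 in the second. All other genes were simulated with 1 mean for all groups, unlike the real data. Log2 CPM used a prior count of 0.5.

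Named were the 4 genes, otk2, otk and Wnt4, the 3 nearest tested genes on each side of each, the 5 most and 2 least correlated genes over 20 libraries, and up to 3 called genes per list in each direction. The members and lists were chosen with earlier results of these data known. Comparisons between single groups and the tests of non-additivity were added after the values were seen. Alternatives were DESeq2 1.42.0, RLE scaling, no count filter, a replicate block, a stage covariate, a 5% threshold, matched backgrounds, and leaving out each library. Genes nos, uro and dp of the lists were not matched by symbol, and 1 gene that the rule names is not reported here.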

Additional observations from a re-analysis of the deposited data

Results flagged for a closer look

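The ClC-a difference with UAS-otk1 varied between embryos with and without UAS-wnt4, by -2.50 on the log2 scale (SE 0.40, edgeR adjusted p = 0.0198, an interaction term chosen with the values in view). The UAS-otk1 libraries also had less w than WT and the other UAS groups, and the part of stock was not tested. ClC-a had 5.59 and 6.5 TPM in UAS-otk1, 1.73 and 1.25 TPM in WT, 1.3 and 1.00 TPM in UAS-wnt4, and 0.84 and 0.68 TPM in UAS-otk1 UAS-wnt4. The size ranged from -2.87 to -2.27 over 25 alternatives, and the call was lost without UAS-otk1 replicate 2 (adjusted p = 0.102) or without UAS-otk1 UAS-wnt4 replicate 2 (adjusted p = 0.127).

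The difference of poe between otk1 RNAi wnt4 RNAi and otk1 RNAi was lower than that between the libraries labelled wnt4 RNAi and WT, by -0.94 on the log2 scale (SE 0.26, adjusted p = 0.0478). The poe level was 23.05 and 24.81 TPM in otk1 RNAi, 18.01 and 13.05 TPM in otk1 RNAi wnt4 RNAi, 20.52 and 25.82 TPM in the libraries labelled wnt4 RNAi, and 14.9 and 19.01 TPM in WT. This call was lost without WT replicate 1 (adjusted p = 0.214), replicate 2 of the libraries labelled wnt4 RNAi (0.118), otk1 RNAi replicate 1 (0.113) or 2 (0.145) or otk1 RNAi wnt4 RNAi replicate 2 (0.106), and once the stage score was added to the model (-0.58, adjusted p = 0.711). Wnt4 was not lower in the libraries labelled wnt4 RNAi, and 19.7% of all genes passed the same test. Both interaction terms were tested for all 4 genes, and the other 6 results did not pass (adjusted p from 0.364 to 0.96).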

How the results depend on the processing

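With the hairpin, 405 genes passed (142 higher, 263 lower). The count was 717 by DESeq2 (207 and 510), 269 after adding the stage score to the model (130 and 139), 231 at a 5% threshold, 115 in matched backgrounds, 1063 without the libraries labelled wnt4 RNAi and 2468 against the 3 other RNAi groups, the last 2 chosen with the values in view. Leaving out each library gave 189 (without otk2 RNAi replicate 2) to 762 (without WT replicate 2) for the hairpin, and it was also moved by over 1.5 times without UAS-wnt4 replicate 2 (707), UAS-otk1 UAS-wnt4 replicate 1 (261), otk2 RNAi replicate 1 (251), otk1 RNAi replicate 2 (266), otk2 RNAi wnt4 RNAi replicate 1 (204) or otk1 RNAi otk2 RNAi replicate 1 (251). Across the 3 hairpin groups 2205 genes passed, and 580 (without otk2 RNAi wnt4 RNAi replicate 1) to 2727 with each library left out, with 681 and 784 without otk2 RNAi replicates 1 and 2. Between backgrounds 10 passed, and 4 (without otk2 RNAi replicate 2) to 18 (without WT replicate 2), with 5 without otk2 RNAi replicate 1 and 6 without either otk1 RNAi library, otk2 RNAi wnt4 RNAi replicate 2 or otk1 RNAi otk2 RNAi replicate 1. At 5% these last counts were 1256 and 6, and between backgrounds 76 passed by DESeq2, 27 with no count filter and 28 with the replicate block. The replicate numbers were not treated as pairs. The deviations of 45 pairs of groups correlated from -0.34 to 0.81 (21 above 0.1 and 10 below -0.1). Such a mix cannot tell whether some libraries of different groups were collected together. The block changed no call of the 4 genes. The poe difference was 1.41 in matched backgrounds, 1.3 against the other RNAi groups and 1.56 to 1.69 with each library left out. The ClC-a difference was 0.0046 without UAS-otk1 and 0.17 against the other RNAi groups, and -0.48 to -0.25 with each library left out. With the stage score in the model, 11 of 24 differences of the 4 genes to WT changed sign, 8 of them with no call in either fit. The other 3 turned positive, axo in otk1 RNAi (0.50, adjusted p = 0.599, from -0.75) and in otk1 RNAi wnt4 RNAi (0.86, adjusted p = 0.0358, from -0.14), and ClC-a in otk1 RNAi (0.27, adjusted p = 0.83, from -0.64). Calls lost with the score included poe in the libraries labelled wnt4 RNAi (0.40, adjusted p = 0.437) and in otk1 RNAi (0.25, adjusted p = 0.796), and thw in otk1 RNAi (-0.67, adjusted p = 0.618). ClC-a was lower than WT in otk1 RNAi wnt4 RNAi (-0.78, edgeR adjusted p = 0.034). That call was lost in 3 of 25 alternatives, with values up to -0.06 and adjusted p up to 0.913. Across the 7 groups without the hairpin, axo did not pass without the libraries labelled wnt4 RNAi (adjusted p = 0.158). Of 2961 values for single genes under alternatives, 2712 kept direction and side of the threshold, 74 changed sign with no call in either setting, 138 lost and 34 gained the call, and 3 reversed with a call. The cause of these shifts was not tested.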
